A study of Homo sapiens with 12 samples.

Results

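The shared part of the response to carfilzomib selection was measured with the cell line as a term, as the mean of the difference between KMS-11/Cfz and KMS-11 and the difference between KMS-34/Cfz and KMS-34. All 12 arrays of the series belong to this comparison, 6 of resistant and 6 of parental cells, with 3 arrays in each of the 4 groups. Both parental lines, KMS-11 and KMS-34, come from human multiple myeloma, that is, from malignant plasma cells. Their derivatives KMS-11/Cfz and KMS-34/Cfz resist 12 nM of carfilzomib, an inhibitor of the proteasome. They were profiled after 1 week of growth without the drug, whereas their parental cells had never been selected. Selection was stepwise and was done on cultures, and no source used here says whether a derivative stems from a single clone. All 4 groups were grown in the same medium, for which the sample labels and the methods of the study give different amounts of serum. Whether the 3 replicates of a group came from separate cultures is not stated, and a p-value here reflects the spread between arrays, which may be technical. In bulk RNA, fewer cells of a type and less RNA per cell cannot be told apart. The question was which genes shifted by moderate and similar amounts in both derivatives.

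Each value is a log2 signal that was centred for each probe set, so it gives a difference between arrays and not an expression level. The labelled cell type could therefore not be checked by the level of its markers. A change is given throughout as a log2 difference of resistant minus parental cells, and a rise or a fall is named only where the Benjamini-Hochberg adjusted p of limma over 19775 genes was under 0.05. A shared moderate change is a rise or fall in the mean of both lines in which the change lay between 0.2 and 1 in size in each line, with the same sign, and the smaller change was at least 0.5 times the larger. These limits choose genes by their values in this comparison, so the sizes within that set are a description and support nothing further. Between arrays of a group, Pearson's r over the probe sets was 0.759 to 0.949, and KMS-34/Cfz replicate 1 had the lowest values. Like deviations from the group were seen in 3 arrays, namely KMS-11 replicate 3, KMS-34 replicate 1 and KMS-34/Cfz replicate 1, and the main counts are also given without them.

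Carfilzomib blocks the protease complex that removes ubiquitin-tagged proteins. Plasma cells load this complex heavily, because they make and fold large amounts of antibody in the endoplasmic reticulum (ER), and faulty chains are sent back to the cytosol for destruction. Cells with too little proteasome capacity can make less secretory protein, raise the chaperones that fold it, send aggregates to autophagy, in which a membrane encloses cargo and delivers it to lysosomes, or make more proteasome. Lists of genes for each of these processes, and for other metabolic, immune and growth programs, were compared between the lines.

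Changes common to both derivatives were small and few next to the changes of each line. In the mean of both lines 789 genes rose, which is 3.99% of the genes tested, and 763 fell, which is 3.86%. Only part of these 1552 genes moved alike in both derivatives. In 1295 the change had the same sign in both lines, and in 257 it had opposite signs. In 956 of those with the same sign, the smaller change was under 0.2, and in 76 more it was under 0.5 times the larger. Tested within each line, 137 genes passed the threshold with the same sign in both and 82 with opposite signs. No gene changed by more than 1 in both lines in the same direction. Of all genes tested, 49.7% had the same sign in both lines, and over genes, which are not independent replicates, Pearson's r of the changes was 0.04.

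A large change in 1 derivative was hardly more often met by a change of the same sign in the other than a small one. KMS-11/Cfz differed from KMS-11 in 706 genes, of which 322 rose and 384 fell, and 55.8% of them had the same sign in KMS-34/Cfz, where the median change in that direction was 0.03. Of the 22 genes with a change over 1 in KMS-11/Cfz, 12 had the same sign in KMS-34/Cfz. KMS-34/Cfz differed from KMS-34 in 1996 genes, of which 1068 rose and 928 fell, and 55.2% had the same sign in KMS-11/Cfz. Of its 62 changes over 1, 37 had the same sign in KMS-11/Cfz. The change differed between the lines in 1274 genes, or 6.44% of those tested. HLTF, a DNA translocase of replication forks, is an example, at -2.03 in KMS-11/Cfz against 0.33 in KMS-34/Cfz. INAVA changed by -0.25 and -3.44 in the same order, and its fall in the mean (-1.85, adjusted p = 5e-10) was therefore mostly that of KMS-34/Cfz.

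**Figure D1:**
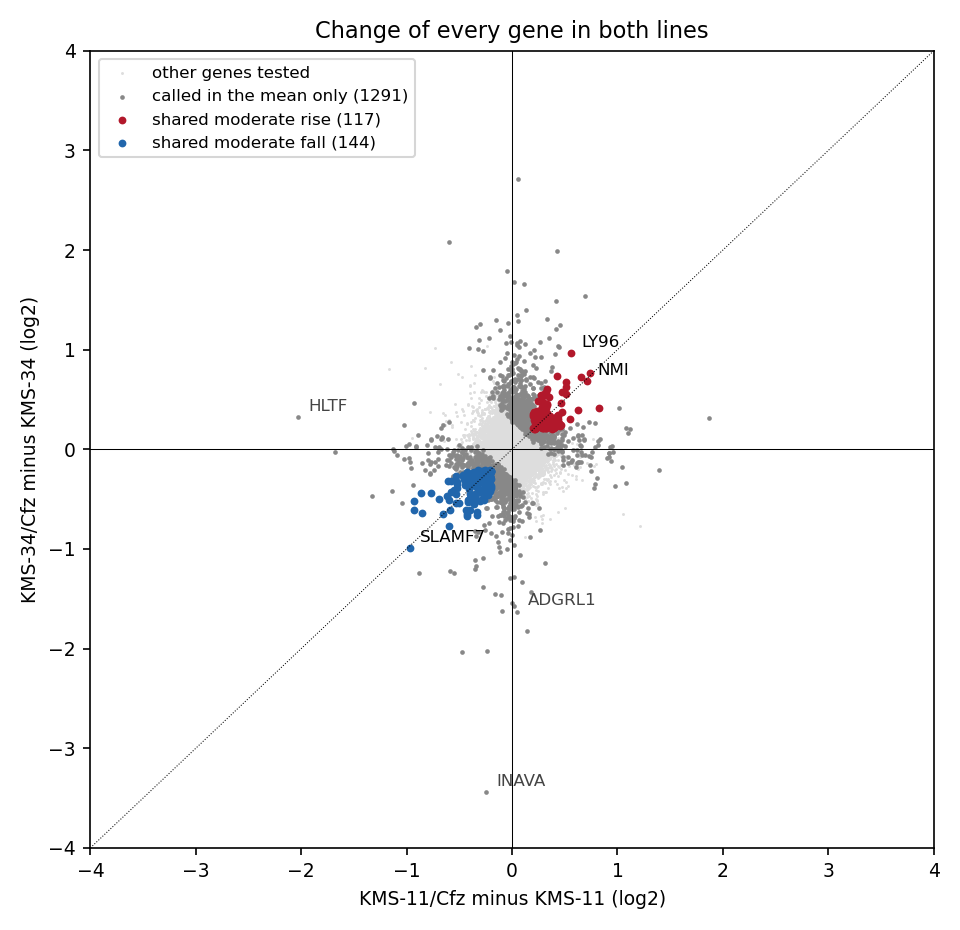
Change of each of 19775 genes in KMS-11/Cfz (horizontal axis, log2 resistant minus parental) and KMS-34/Cfz (vertical axis), with 117 shared moderate rises in red, 144 shared moderate falls in blue and genes called only in the mean in dark grey. The coloured genes lie near the dotted line of equal change and within 1 of 0, while the largest changes, such as those of INAVA and HLTF, lie along the axes.

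Shared moderate changes numbered 117 rises (0.592% of the genes tested) and 144 falls (0.728%). The median change of the rises was 0.30 in KMS-11/Cfz against 0.32 in KMS-34/Cfz, and the median of their means corresponds to a 1.24-fold higher signal. The median change of the falls was -0.32 in KMS-11/Cfz against -0.33 in KMS-34/Cfz, a signal 0.794 times that of the parental cells. Resistant and parental arrays did not overlap in either line for 97 of the rises and 125 of the falls, against 1.98% of all genes with higher and 2.37% with lower resistant arrays in both lines. The set was chosen on these same arrays, so this gap follows in large part from the limits and supports nothing further. Both lines passed the threshold on their own in 42 rises and 66 falls, and neither did in 27 and 23. LY96 was the only member of the set whose change differed between the lines. The median width of the 95% interval of the difference between the lines was 0.50 for the rises and 0.47 for the falls, so these arrays would miss modest differences in size. With cyclic loess scaling the set held 163 rises and 116 falls in place of 117 and 144.

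Array by array, the rises averaged 0.34, 0.33 and 0.33 in KMS-11/Cfz and 0.25, 0.37 and 0.44 in KMS-34/Cfz, as differences from the parental mean. The falls averaged -0.36, -0.35 and -0.37 in KMS-11/Cfz and -0.46, -0.35 and -0.29 in KMS-34/Cfz. Thus KMS-34/Cfz replicate 1 had the smallest rises and the deepest falls of its group, and its 2 fellows differed from each other less. Without the 3 arrays named above, 130 rises and 153 falls met the same limits.

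The shared rises with the smallest p included LY96, NMI and GBP1. LY96 encodes MD-2, the partner of Toll-like receptor TLR4 that binds lipopolysaccharide. Its arrays stood at 0.54, 0.54 and 0.59 in KMS-11/Cfz and at 0.90, 0.97 and 1.03 in KMS-34/Cfz, and no parental array was above 0.14. The mean change was 0.76 (standard error 0.05, adjusted p = 2.5e-06), and the larger change in KMS-34/Cfz passed the test of the difference (0.41, adjusted p = 0.034). NMI, an interferon-induced partner of STAT and MYC proteins, was at 0.70, 0.71 and 0.72 in KMS-11/Cfz and at 0.58, 0.79 and 0.69 in KMS-34/Cfz. Its mean change of 0.70 (standard error 0.05, adjusted p = 2.7e-06) was alike in both lines, with a difference of -0.03 and a 95% interval from -0.24 to 0.19. GBP1, a guanylate-binding protein induced by interferon-gamma, rose by 0.53 in the mean (adjusted p = 6.4e-05). Its 4 probe sets had mean changes from 0.09 to 0.77, and 3 of them passed the threshold.

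Several transcription factors were among the shared rises. ELF4, an ETS factor that restrains lymphocyte proliferation, rose by 0.43 in KMS-11/Cfz against 0.74 in KMS-34/Cfz (adjusted p = 3.3e-06 for the mean), and the difference between the lines did not pass the threshold (0.31, adjusted p = 0.053). HEY1, a repressor downstream of Notch, was at 0.54, 0.55 and 0.44 in KMS-11/Cfz and at 0.61, 0.69 and 0.73 in KMS-34/Cfz (mean 0.59, adjusted p = 1.7e-05). Of 40 KLF factors, ID genes and members of BMP or TGF-beta signalling, 4 rose and 1 fell, and the list median was 0.00. The members with a shared moderate rise were ID1, KLF4 and KLF10. ID1, which blocks the DNA binding of E proteins and is a target of BMP signalling, had the widest spread, at 0.77, 0.64 and 0.57 in KMS-11/Cfz and at 0.37, 0.78 and 1.04 in KMS-34/Cfz (mean 0.69, standard error 0.09, adjusted p = 3.9e-04). KLF4, a Kruppel-like transcription factor, changed by 0.55 and 0.30 (adjusted p = 2.7e-04 for the mean), and 1 of its 2 probe sets passed the threshold. KLF10, induced by TGF-beta, changed by 0.29 and 0.33 (adjusted p = 0.0047). Among the 36 genes of the G1 phase and of the p53 response, 6 rose and 3 fell. GADD45A, a stress sensor that slows the cell cycle, was the member with a shared moderate rise, at 0.39, 0.34 and 0.25 in KMS-11/Cfz and 0.57, 0.57 and 0.66 in KMS-34/Cfz (adjusted p = 1.8e-04 for the mean).

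**Figure D2:**
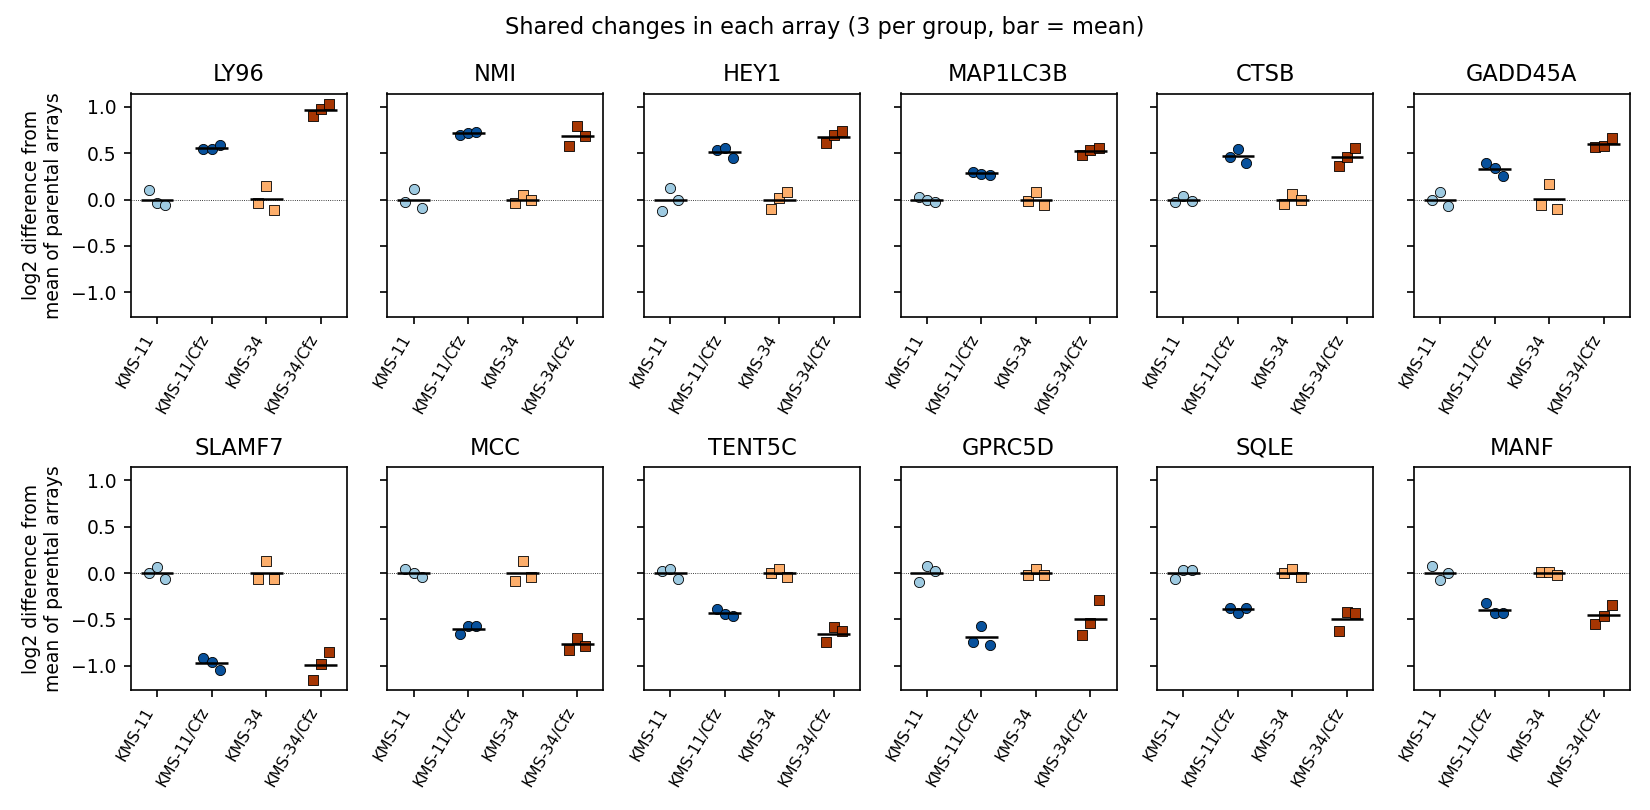
Value of each array (log2 difference from the mean of the parental arrays of its line) for 6 genes that rose (top) and 6 that fell (bottom), with 3 arrays per group and a bar at the group mean. In each of these genes the 3 resistant arrays of a line lie wholly on 1 side of its 3 parental arrays.

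Of 16 ATG8 proteins and autophagy receptors, 5 rose and 0 fell, where 3.99% of all genes rose. ATG8 proteins coat the autophagic membrane, and the receptors tie ubiquitin-tagged cargo to them. MAP1LC3B, the ATG8 protein used to count autophagosomes, was at 0.30, 0.27 and 0.27 in KMS-11/Cfz and at 0.47, 0.54 and 0.55 in KMS-34/Cfz, with parental arrays between -0.06 and 0.08. Its mean change was 0.40 (standard error 0.04, adjusted p = 4.6e-05), and both of its probe sets rose. Among the receptors, OPTN changed by 0.27 and 0.24 (adjusted p = 0.0049) and CALCOCO2 by 0.22 and 0.20 (adjusted p = 0.0072). For OPTN 1 of 2 probe sets passed the threshold, and for CALCOCO2 2 of 4. SQSTM1, the best known receptor, rose in the mean (0.27, adjusted p = 0.0036) but its changes of 0.40 and 0.14 were too unlike for the set. Its 5 probe sets had mean changes from 0.002 to 0.46, and 3 of them passed the threshold. The arrays of KMS-34/Cfz stood at 0.04, 0.10 and 0.27 for SQSTM1 and overlapped those of KMS-34. Without the 3 arrays named above 5 genes of the list still rose, but 1 instead of 3 had a shared moderate change. Of 33 core autophagy genes, 3 rose and 1 fell, and none was in the set. Of 47 lysosomal genes, 7 rose and 2 fell. CTSB, a lysosomal cysteine protease, was at 0.46, 0.54 and 0.39 in KMS-11/Cfz and at 0.37, 0.46 and 0.55 in KMS-34/Cfz, and all 5 of its probe sets rose (mean 0.46, adjusted p = 4.7e-05).

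Some promoters are shown for a motif found in more of the rises than of the falls. Among 8 motifs that were searched, the antioxidant response element TGACNNNGC, to which NRF2 and related factors can bind, was found on either strand in 22 of 86 promoters of shared rises (25.6%), in 18 of 120 promoters of shared falls (15%) and in 14.8% of the promoters of 15381 tested genes. A promoter here is the stretch of 250 bases before and 50 bases after a gene's start in RefSeq (GRCh38.p14). The motifs had been chosen with earlier results known, and a match is a description of the sequence and not of binding. The bases before the start are printed 5′ to 3′ on the strand of the gene, with the match in capitals, for the 3 named rises that had a match there (MAP1LC3B at chr16:87392086-87392335, plus strand, CALCOCO2 at chr17:48830785-48831034, plus strand, and PARP14 at chr3:122680589-122680838, plus strand) and for SDF2L1 (chr22:21642052-21642301, plus strand), 1 of the 4 named falls that matched there too. The others were SSR3, ALDOC and ISG20, the last with 2 matches. More named falls than named rises had a match, but more falls than rises were named, so these counts are not shares.
MAP1LC3B: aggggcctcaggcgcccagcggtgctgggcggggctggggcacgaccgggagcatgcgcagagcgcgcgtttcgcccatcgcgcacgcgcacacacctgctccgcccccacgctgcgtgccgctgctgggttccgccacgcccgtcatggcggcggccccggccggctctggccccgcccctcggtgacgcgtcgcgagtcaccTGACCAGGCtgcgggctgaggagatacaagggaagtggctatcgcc
CALCOCO2: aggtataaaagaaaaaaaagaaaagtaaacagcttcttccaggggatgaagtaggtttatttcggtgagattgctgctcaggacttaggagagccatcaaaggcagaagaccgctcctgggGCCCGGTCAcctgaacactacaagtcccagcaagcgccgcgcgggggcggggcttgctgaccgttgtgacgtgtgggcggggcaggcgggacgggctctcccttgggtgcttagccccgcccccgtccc
PARP14: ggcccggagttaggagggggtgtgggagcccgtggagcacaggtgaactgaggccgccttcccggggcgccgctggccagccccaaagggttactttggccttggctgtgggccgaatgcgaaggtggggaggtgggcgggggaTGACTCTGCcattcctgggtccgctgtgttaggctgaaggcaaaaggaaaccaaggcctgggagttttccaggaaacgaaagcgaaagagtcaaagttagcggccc
SDF2L1: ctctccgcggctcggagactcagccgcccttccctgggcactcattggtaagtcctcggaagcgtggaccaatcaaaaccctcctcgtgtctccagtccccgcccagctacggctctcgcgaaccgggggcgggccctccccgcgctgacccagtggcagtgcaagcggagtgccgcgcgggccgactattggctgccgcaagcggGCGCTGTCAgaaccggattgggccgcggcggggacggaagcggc
In CALCOCO2 and SDF2L1 the match reads on the opposite strand. The first base of the match lay 46 bases before the start in MAP1LC3B and 44 in SDF2L1. Matches to the same pattern thus stood at a like place in a gene that rose and in a gene that fell. They lay on opposite strands and differed in the bases at N. The NF-Y box ATTGGC was found in 27.5% of the promoters of the falls, 19.8% of those of the rises and 17.7% of all. The E-box CACGTG was found in 15%, 6.98% and 8.90% in the same order. The sterol response element TCACNCCAC matched 1.67%, 1.16% and 1.09%. The CACCC box of KLF factors, GGGTGTGGC, matched 0 of 120 falls, 0 of 86 rises and 0.99% of all. A motif this rare cannot tell sets of this size apart. The SP1 GC box GGGGCGGGG matched 29.2% of the falls, 31.4% of the rises and 22.6% of all, so it was more frequent in both sets. The ATF4 motif TGATGNAA matched 1.67%, 2.33% and 2.62%, and the cyclic AMP response element TGACGTCA 2.5%, 0% and 2.67%.

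Of 36 antioxidant and detoxifying targets of NRF2, 7 rose and 1 fell, and the change differed between the lines in 8. Medians over the list were 0.12 in KMS-11/Cfz against -0.02 in KMS-34/Cfz. CBR3, a carbonyl reductase, and HMOX1, which breaks down heme, were the members with a shared moderate rise. CBR3 changed by 0.51 and 0.62 (standard error of the mean change 0.11, adjusted p = 0.0047), with single arrays from 0.30 to 0.99, and missed the threshold with cyclic loess scaling (0.41, adjusted p = 0.21). HMOX1 changed by 0.24 and 0.28 (adjusted p = 0.026), and it missed the threshold without KMS-11/Cfz replicate 1 or 2, without any single KMS-11 array or without KMS-34 replicate 1 (adjusted p up to 0.072). Of 40 genes of the proteasome core, its caps and their assembly factors, 11 rose and 0 fell, with a list median of 0.12 against 0.00 over all genes. The rises were mostly unequal, as the medians were 0.19 in KMS-11/Cfz against 0.05 in KMS-34/Cfz, and only PSMA2, a subunit of the core, was in the set (0.20 and 0.21, adjusted p = 0.0081). For PSMA2 1 of 2 probe sets passed the threshold. PSMB5, the subunit that carfilzomib binds, rose by 0.24 in the mean (adjusted p = 0.014), from 0.31 in KMS-11/Cfz against 0.17 in KMS-34/Cfz. Of 28 ubiquitin-activating and ubiquitin-conjugating enzymes, 0 rose and 0 fell.

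Of 41 genes stimulated by type I interferon, 12 rose and 1 fell, but the change differed between the lines in 11 of them. Medians over the list were 0.01 in KMS-11/Cfz against 0.15 in KMS-34/Cfz. IFIT3, an antiviral protein that binds partner IFIT proteins, was at 0.59, 0.73 and 0.54 in KMS-11/Cfz and at 0.21, 0.43 and 0.54 in KMS-34/Cfz (mean 0.51, adjusted p = 5.9e-04). MX1, an antiviral GTPase, was at 0.42, 0.23 and 0.25 in KMS-11/Cfz and at 0.34, 0.59 and 0.72 in KMS-34/Cfz (mean 0.43, adjusted p = 0.0019). ISG15, a ubiquitin-like modifier, changed by 0.33 and 0.45 (adjusted p = 0.0058). PARP14, an ADP-ribosyltransferase of the same response, changed by 0.31 and 0.55 (adjusted p = 7.9e-05), although only 1 of its 2 probe sets passed the threshold. That probe set changed by 0.35 and 1.06 and the other by 0.27 and 0.05, so neither met the limits of the set on its own. ISG20, an exonuclease that degrades viral RNA, fell at -0.23 and -0.46 (adjusted p = 0.012), and this smaller change was just over 0.5 times the larger. For ISG20 1 of 2 probe sets passed the threshold, and KMS-11/Cfz did not pass on its own (adjusted p = 0.36). Of 16 genes of class I peptide loading and the immunoproteasome, 1 rose and 0 fell.

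**Figure D3:**
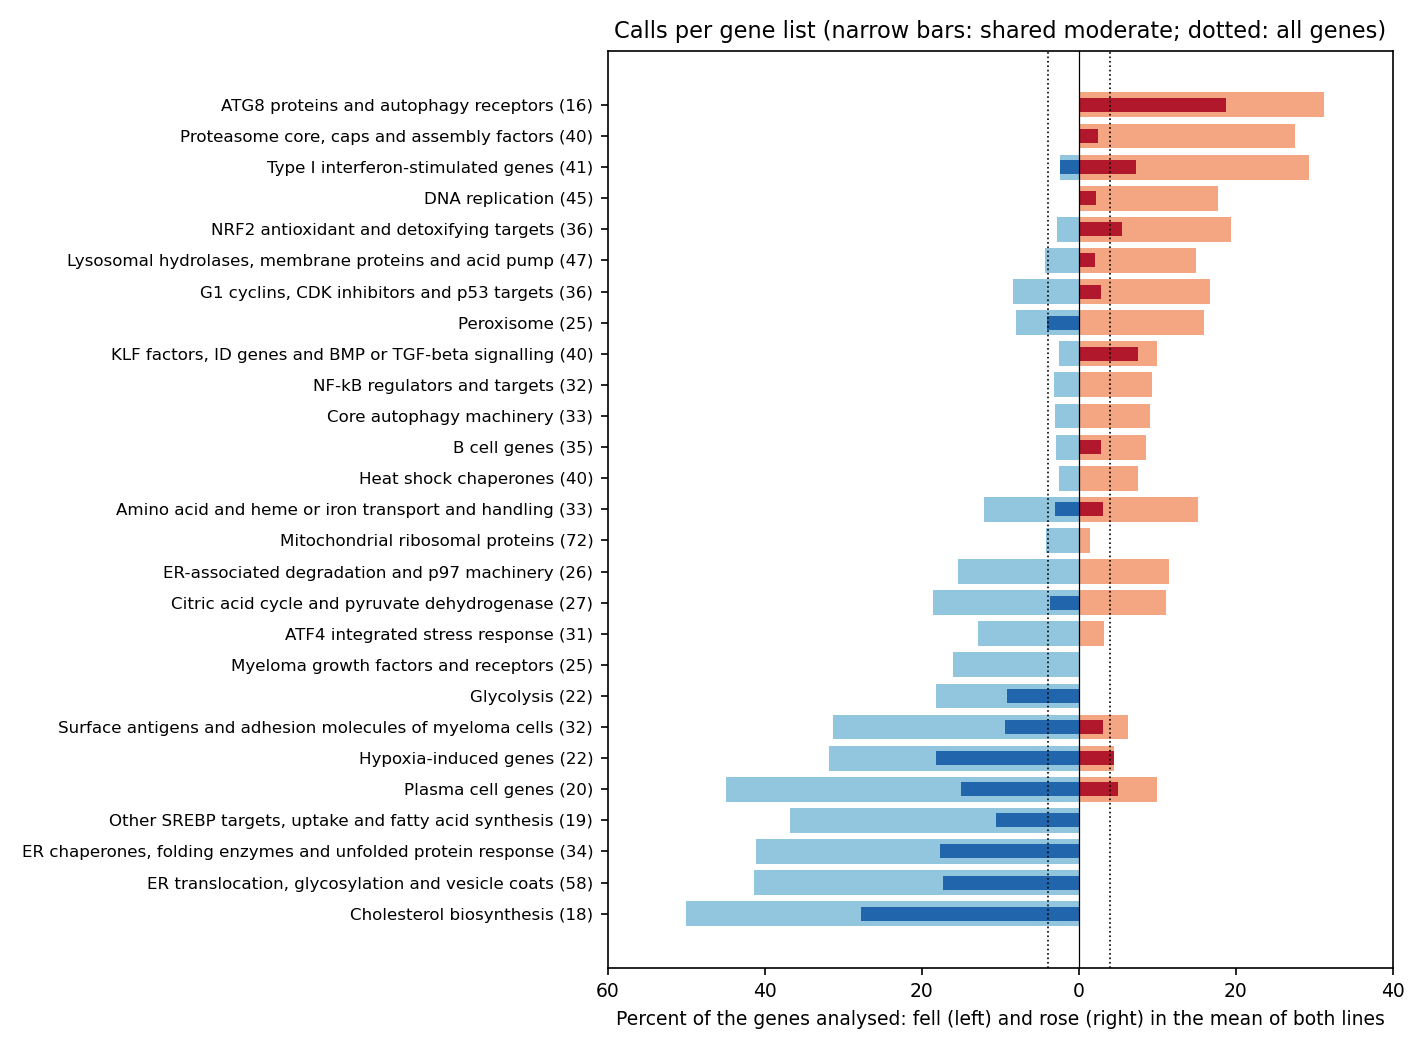
Share of each list that rose (right) or fell (left) in the mean of both lines, in percent of the genes analysed (number in brackets), for lists with at least 4 such genes. Narrow dark bars are shared moderate changes and dotted lines mark the shares over all genes, 3.99% and 3.86%. Cholesterol biosynthesis (9 of 18) and plasma cell genes (9 of 20) reach farthest to the left, and the ATG8 and receptor list (5 of 16) farthest to the right.

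Among the lists, those of cholesterol biosynthesis, plasma cells and the secretory pathway had the highest shares of falls, against 3.86% of all genes. Of 18 genes of cholesterol biosynthesis, 0 rose and 9 fell, 13 were lower in both derivatives and none was higher in both. The list median was -0.17 in the mean, -0.14 in KMS-11/Cfz against -0.26 in KMS-34/Cfz. SQLE, squalene epoxidase, was at -0.38, -0.43 and -0.37 in KMS-11/Cfz and at -0.63, -0.42 and -0.43 in KMS-34/Cfz (mean -0.44, standard error 0.05, adjusted p = 7.6e-05), and all 4 of its probe sets fell. DHCR7, which catalyses the last step to cholesterol, was at -0.32, -0.26 and -0.28 in KMS-11/Cfz and at -0.61, -0.47 and -0.42 in KMS-34/Cfz (adjusted p = 2.7e-04). The methylsterol monooxygenase MSMO1 changed by -0.30 and -0.43 (adjusted p = 3.1e-04), the farnesyl diphosphate synthase FDPS by -0.22 and -0.33 (adjusted p = 0.0011) and the lanosterol synthase LSS by -0.25 and -0.26 (adjusted p = 0.018). With cyclic loess scaling FDPS missed the threshold (-0.10, adjusted p = 0.48). LSS had 3 probe sets, of which 1 fell, and its call was lost without KMS-11/Cfz replicate 1 (adjusted p = 0.055) or KMS-11 replicate 2 (adjusted p = 0.053) and with the most variable probe set (adjusted p = 0.49). HMGCS1, an early enzyme of the pathway, lay just outside the set, since its change of -1.05 in KMS-11/Cfz was over 1 in size, and at -0.54 in KMS-34/Cfz it differed between the lines (adjusted p = 0.048).

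Other targets of the sterol-responsive SREBP factors moved the same way, with 0 of 19 rising and 7 falling. INSIG1, which holds SREBP in the ER when sterol is plentiful, had nearly equal changes of -0.41 and -0.40 (adjusted p = 7.3e-05), and its 3 probe sets fell. SCD, which makes monounsaturated fatty acids, was at -0.44, -0.39 and -0.42 in KMS-11/Cfz and at -0.68, -0.47 and -0.44 in KMS-34/Cfz (adjusted p = 7.7e-05), and its 4 probe sets fell. Of 23 genes of mitochondrial fatty acid oxidation, 1 rose and 0 fell. Without the 3 arrays named above, 10 cholesterol genes and 7 other targets fell, and 0 rose in either list. With the probe set of largest variance in place of the average, 9 and 4 fell.

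ER chaperones, folding enzymes and sensors of the unfolded protein response contributed 14 falls and 0 rises among 34 genes, and 23 were lower in both derivatives while none was higher in both. The list median was -0.27 in KMS-11/Cfz against -0.10 in KMS-34/Cfz, and the change differed between the lines in 10 genes. The set holds 6 of the list. MANF, a protein that the unfolded protein response induces, was at -0.32, -0.43 and -0.43 in KMS-11/Cfz and at -0.55, -0.46 and -0.35 in KMS-34/Cfz (mean -0.42, standard error 0.05, adjusted p = 1.2e-04). SDF2L1, a partner of the chaperone BiP, was at -0.35, -0.43 and -0.42 in KMS-11/Cfz and at -0.69, -0.49 and -0.28 in KMS-34/Cfz (adjusted p = 8.4e-04). The prolyl isomerase FKBP2 changed by -0.37 and -0.28 (adjusted p = 9.4e-04), the co-chaperone DNAJB11 by -0.27 and -0.23 (adjusted p = 0.003) and the disulfide isomerase PDIA3 by -0.46 and -0.26 (adjusted p = 0.0033). With the most variable probe set alone, PDIA3 missed the threshold (-0.17, adjusted p = 0.38). TXNDC11, at -0.20 and -0.39, was the remaining member of the set.

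Of 58 genes of ER translocation, glycosylation and vesicle coats, 0 rose and 24 fell, with a list median of -0.11, and 10 were in the set. These genes carry new chains into the ER, attach sugars to them and move them on in coated vesicles. SSR2, a subunit of the complex beside the translocation channel, was at -0.20, -0.22 and -0.24 in KMS-11/Cfz and at -0.41, -0.42 and -0.36 in KMS-34/Cfz (mean -0.31, standard error 0.04, adjusted p = 2.1e-04). Its partner SSR3 was at -0.38 in each of the 3 KMS-11/Cfz arrays and at -0.29, -0.19 and -0.24 in KMS-34/Cfz (adjusted p = 4.8e-04), and it missed the threshold with the most variable of its 4 probe sets (adjusted p = 0.073). SEC61A1, the channel itself, was at -0.28, -0.30 and -0.35 in KMS-11/Cfz and at -0.34, -0.24 and -0.18 in KMS-34/Cfz, and both of its probe sets fell (adjusted p = 0.0013). The signal peptidase subunit SPCS3 changed by -0.25 and -0.35 (adjusted p = 9.0e-04), with 2 of 3 probe sets past the threshold. RPN1, a subunit of the enzyme that attaches sugar chains, changed by -0.25 and -0.30 (adjusted p = 0.0023). The others were SPCS2, SRPRA, STT3B, SEC24D and COPG1, with changes between -0.21 and -0.36. Of 26 genes of ER-associated degradation, which returns faulty chains to the cytosol, 3 rose and 4 fell, and none was in the set. Without the 3 arrays named above, 15 chaperone genes and 23 genes of translocation and coats fell, and 0 rose.

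**Figure D4:**
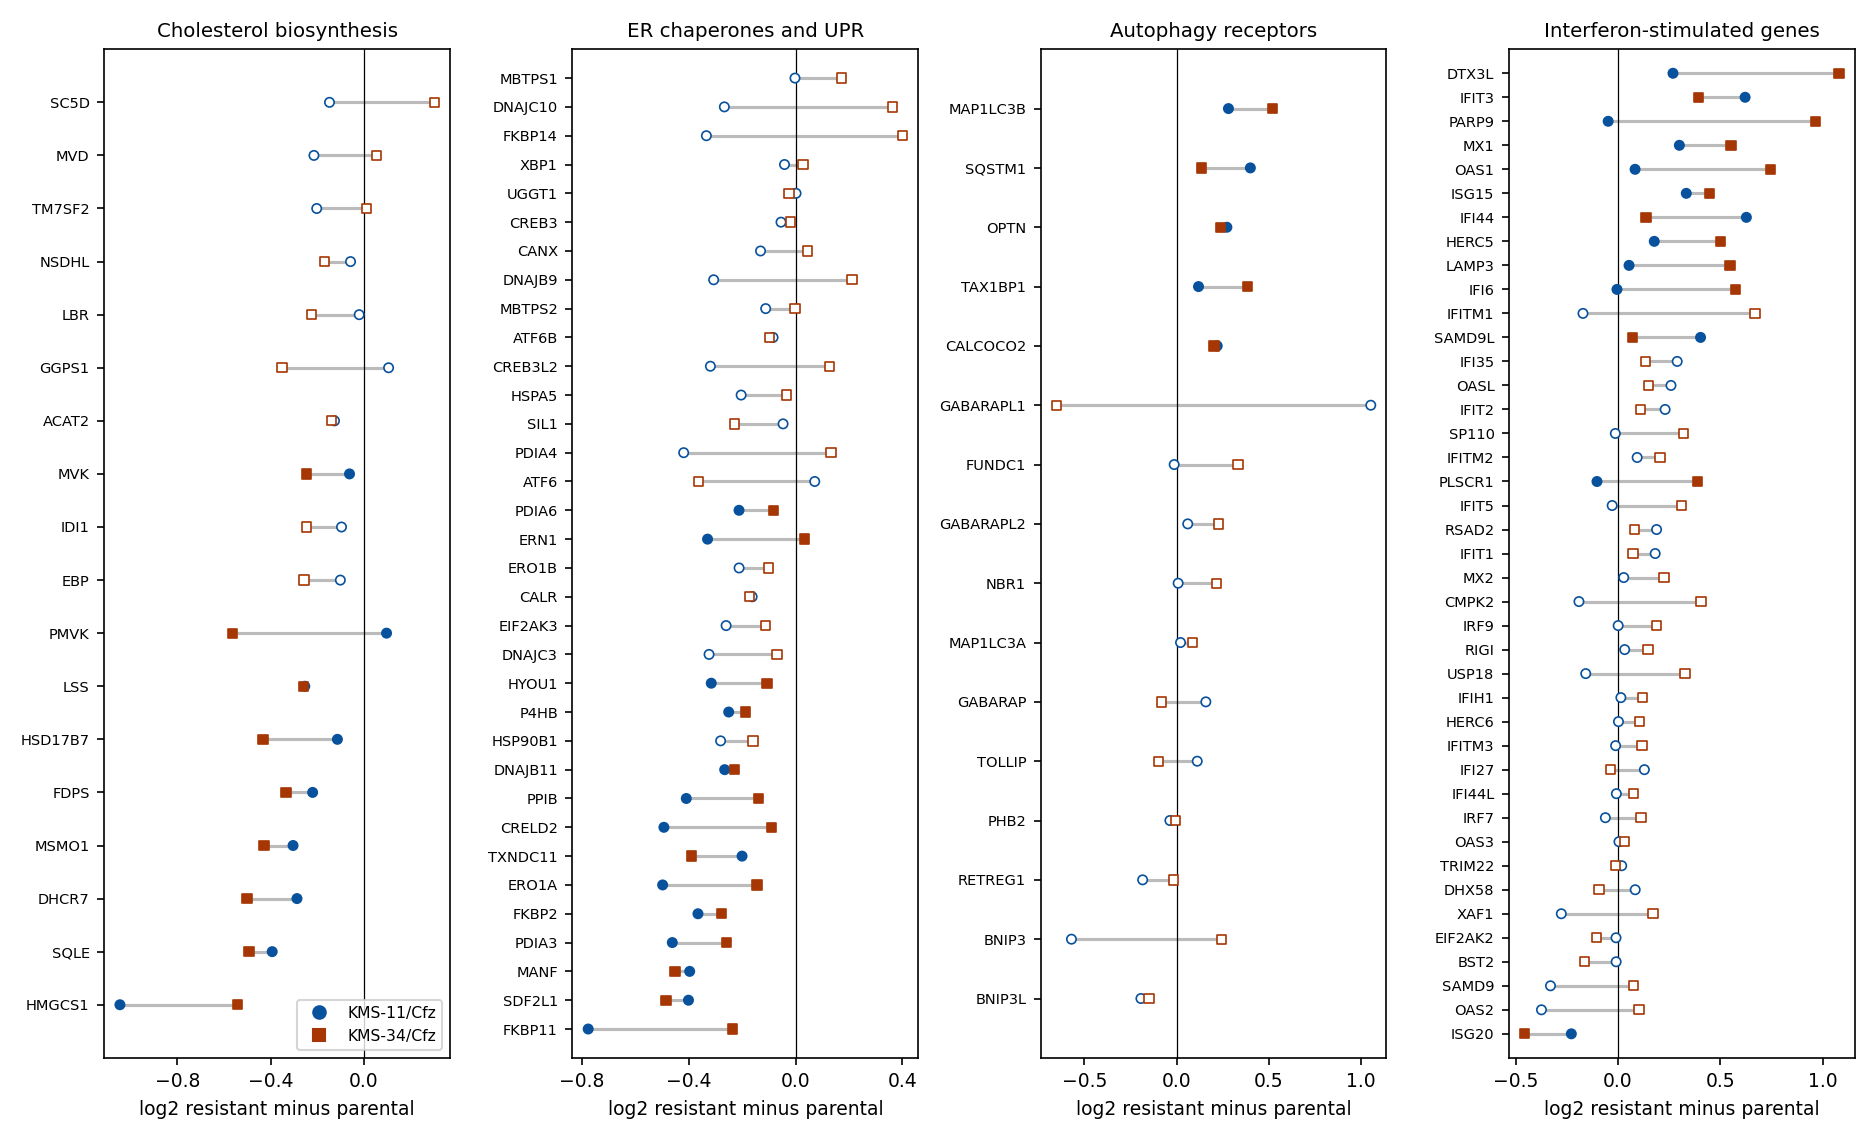
Change of every analysed gene of 4 lists in KMS-11/Cfz (blue circles) and KMS-34/Cfz (brown squares), as log2 resistant minus parental, with symbols filled where the mean of both lines passed the threshold. Filled symbols lie on the left in cholesterol biosynthesis (9 of 18) and among ER chaperones (14 of 34), and on the right for 5 of 16 ATG8 proteins and receptors and 12 of 41 interferon-stimulated genes, with ISG20 on the left.

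A gene of the plasma cell surface had the largest fall within the set, whose limits leave out any change over 1. Of 20 plasma cell genes, 2 rose and 9 fell. SLAMF7, the surface receptor targeted by elotuzumab, was at -0.91, -0.95 and -1.05 in KMS-11/Cfz and at -1.15, -0.97 and -0.86 in KMS-34/Cfz, with no parental array below -0.07. Its signal was 0.510 times that of KMS-11 and 0.502 times that of KMS-34 (mean change -0.98, standard error 0.06, adjusted p = 7.6e-07), and the difference between the lines was -0.02 with a 95% interval from -0.28 to 0.23. GPRC5D, a receptor of plasma cells that is also a target of immunotherapy, was at -0.74, -0.57 and -0.77 in KMS-11/Cfz and at -0.67, -0.53 and -0.29 in KMS-34/Cfz (adjusted p = 8.3e-05). TENT5C, a poly(A) polymerase that stabilises mRNAs of secreted proteins, was at -0.39, -0.44 and -0.46 in KMS-11/Cfz and at -0.75, -0.58 and -0.63 in KMS-34/Cfz (adjusted p = 8.4e-06). ITGA6, an integrin chain that binds laminin, changed by -0.34 and -0.33 (adjusted p = 8.1e-04). CD38, the target of daratumumab, moved the other way, by 0.44 and 0.34 (adjusted p = 0.016), though the 3 KMS-11/Cfz arrays were spread from 0.23 to 0.67 and with cyclic loess scaling the estimate was larger but missed the threshold (1.11, adjusted p = 0.065). Of 32 surface antigens and adhesion molecules of myeloma cells, 2 rose and 10 fell. Of 35 B cell genes, 3 rose and 1 fell, and SPIB, a B cell ETS factor, was in the set at 0.28 and 0.24 (adjusted p = 0.012). For SPIB 1 of 2 probe sets passed the threshold, and the other changed by 0.22 and -0.03.

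Markers of other cells that a culture should lack showed no shared moderate change. Of 20 markers of T and NK cells 0 rose and 2 fell, of 15 of monocytes and macrophages 0 rose and 0 fell, of 9 erythroid markers 0 rose and 1 fell, and of 19 stromal and endothelial markers 0 rose and 1 fell. Their list medians lay between -0.03 and 0.00.

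Genes that hypoxia induces fell more often than they rose in the mean, with 7 falls and 1 rise among 22. Medians over the list were -0.23 in KMS-11/Cfz against -0.02 in KMS-34/Cfz, so the list as a whole was lower mainly in KMS-11/Cfz. BHLHE40, a transcriptional repressor that hypoxia induces, was at -0.87, -0.46 and -0.45 in KMS-11/Cfz and at -0.71, -0.57 and -0.26 in KMS-34/Cfz (adjusted p = 0.0024). PDK1, a kinase that inhibits pyruvate dehydrogenase, changed by -0.44 and -0.28 (adjusted p = 6.2e-04), and EGLN1, an oxygen sensor, by -0.44 and -0.26 (adjusted p = 0.0023). For PDK1 2 of 3 probe sets passed the threshold, and for EGLN1 3 of 4. ANKRD37 was close to the threshold at -0.34 and -0.35 (adjusted p = 0.049), and 10 of the 12 omissions of a single array ended the call (adjusted p up to 0.12). Of its 2 probe sets 1 passed the threshold, and the other changed by -0.01 and -0.17. NDRG1, also induced by hypoxia, rose instead, at 0.27 and 0.39 (adjusted p = 0.013), with overlapping arrays in KMS-11. Only 4 of the genes fell with aligned array medians, or with cyclic loess scaling, under which none rose. Of 22 glycolysis genes, 0 rose and 4 fell, and ALDOC (-0.59 and -0.61, adjusted p = 8.9e-04) and PFKFB4 (-0.65 and -0.65, adjusted p = 0.009) were in the set. ALDOC is an aldolase, and PFKFB4 makes an activator of glycolysis. The KMS-11/Cfz arrays stood at -0.90, -0.40 and -0.46 for ALDOC and at -1.08, -0.52 and -0.36 for PFKFB4. PFKFB4 did not pass the threshold in KMS-11/Cfz on its own (adjusted p = 0.087), and its KMS-34 arrays ranged from -0.35 to 0.38. Its 2 probe sets fell by unlike amounts, at -1.02 and -0.88 in 1 and at -0.29 and -0.41 in the other. PFKFB4 missed the threshold without the 3 arrays named above. Of 33 complex I subunits 0 rose and 2 fell, and of 33 subunits of complexes III to V 0 rose and 0 fell.

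Histone genes that are used in DNA replication were listed only after their values had been seen. Of 42 such genes, 0 rose and 13 fell, where 3.86% of all genes fell, and the other 29 did not pass the threshold. In 22 the change was below 0 in both derivatives. The change differed between the lines in 5 of the genes that fell. Among these, H2BC4 changed by -0.91 in KMS-11/Cfz against 0.02 in KMS-34/Cfz, and H2AC25 by 0.00 against -0.49. H2BC9 was at -0.94, -0.84 and -1.02 in KMS-11/Cfz and at -0.84, -0.49 and -0.50 in KMS-34/Cfz (mean -0.77, adjusted p = 4.6e-05), and H2BC5 at -0.78, -0.77 and -0.76 and at -0.56, -0.45 and -0.30 (adjusted p = 1.4e-05). H4C11, at -0.54 and -0.54, H2BC12, at -0.58 and -0.43, and H4C8, at -0.43 and -0.24, were also in the set. H1-2 fell by more than 1 in KMS-34/Cfz (-0.89 and -1.24, adjusted p = 2.7e-06) and lay outside it. These genes are near-identical copies, so a probe set can read several of them and the values of single members are uncertain. Genes of DNA replication moved the other way, with 8 rises and 0 falls among 45 and a list median of 0.08, and 5 rose with aligned array medians. PRIM2, a primase subunit, was their only member of the set (0.30 and 0.28, adjusted p = 0.043), and 10 of the 12 omissions of a single array ended the call (adjusted p up to 0.10). Of 42 mitosis genes, 1 rose and 2 fell.

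Several of the falls with the smallest p belonged to none of these lists. MCC, a candidate colorectal tumour suppressor, was at -0.66, -0.57 and -0.57 in KMS-11/Cfz and at -0.83, -0.70 and -0.78 in KMS-34/Cfz (mean -0.69, adjusted p = 2.7e-06), a call lost with cyclic loess scaling (-0.36, adjusted p = 0.12). Without a cell line term the call of MCC was lost too, as happened to 73 of the 78 named genes past the threshold. TEX14, known from intercellular bridges of germ cells, was at -0.89, -0.72 and -0.94 in KMS-11/Cfz and at -0.83, -0.57 and -0.51 in KMS-34/Cfz (adjusted p = 1.3e-05). CAV1, the coat protein of caveolae, changed by -0.58 and -0.32 (adjusted p = 1.6e-05) and TJP1, a scaffold of tight junctions, by -0.60 and -0.32 (adjusted p = 2.7e-05). For both, the difference between the lines missed the threshold (adjusted p = 0.074 and 0.072). GRB14, an adaptor that dampens insulin receptor signalling, changed by -0.87 and -0.44 (adjusted p = 7.9e-05), but by -0.15 in the mean with cyclic loess scaling (adjusted p = 0.78). CYSLTR1, a leukotriene receptor, changed by -0.61 and -0.47 (adjusted p = 6.8e-05). Of its 3 probe sets 2 fell, and the other changed by -0.19 and 0.06. KIAA0930 (-0.55 and -0.41) and KAZN (-0.53 and -0.39) completed the 15 falls with the smallest p. The 4 probe sets of KAZN had mean changes from -1.07 to -0.05, and 2 of them fell. Among the rises outside the lists, ERFE, a hormone that controls hepcidin, was at 0.25, 0.28 and 0.29 in KMS-11/Cfz and at 0.43, 0.51 and 0.68 in KMS-34/Cfz (adjusted p = 2.7e-04). SDCBP, the exosome adaptor syntenin, changed by 0.29 and 0.41 (adjusted p = 2.9e-04), FAM229B by 0.33 and 0.46 (adjusted p = 1.4e-04) and SANBR by 0.41 and 0.22 (adjusted p = 3.1e-04), the last with 1 of 2 probe sets past the threshold. That probe set of SANBR changed by 0.87 and 0.37 and the other by -0.05 and 0.07, so neither met the limits of the set on its own.

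In all, 54 of the 261 genes of the set were in a list and 207 were in none. In other lists, TFRC, the transferrin receptor, fell at -0.21 and -0.23 (adjusted p = 0.013) and PEX5, the import receptor of peroxisomes, at -0.24 and -0.29 (adjusted p = 0.035). For TFRC 3 of 5 probe sets passed the threshold, and for PEX5 1 of 2. The call of PEX5 was lost in 6 of the 12 omissions of a single array (adjusted p up to 0.097). Lists whose shares lay near those of all genes included the 54 cytosolic ribosomal proteins analysed (0 rose and 1 fell), the 44 spliceosome genes (1 and 1), the 29 genes of the BCL2 family and death receptors (1 and 0), the 20 multidrug and ABC transporters (1 and 0) and the 40 heat shock chaperones (3 and 1). The remaining lists held 44 deubiquitinating enzymes (1 rose and 2 fell), 72 mitochondrial ribosomal proteins (1 and 3), 39 genes of ribosome biogenesis (1 and 2), 18 aminoacyl-tRNA synthetases (0 and 1), 25 genes of sphingolipid metabolism (2 and 0) and 32 of NF-kB (3 and 1). The shares were higher in 25 peroxisome genes (4 and 2), 33 genes of amino acid, heme and iron handling (5 and 4), 27 of the citric acid cycle (3 and 5) and 25 myeloma growth factors and receptors (0 and 4). In an additive model, in which differences between the lines add to the error, no peroxisome gene passed the threshold, and the citric acid cycle list kept 1 rise and 1 fall. Under that model the falls numbered 6 in cholesterol biosynthesis, 4 among the other SREBP targets, 11 among the ER chaperones, 17 in translocation and coats, 6 among the plasma cell genes and 3 among the hypoxia genes. The rises numbered 5 among the ATG8 proteins and receptors, 6 in the proteasome, 6 among the interferon-stimulated genes, 3 among the NRF2 targets, 2 in lysosomes and 4 in DNA replication, against 275 rises and 321 falls in all. In the ATF4 integrated stress response 1 of 31 genes rose and 4 fell, while 15 differed between the lines, with medians of -0.12 in KMS-11/Cfz against 0.14 in KMS-34/Cfz.

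The limits of the set cut through a continuum. SPIRE1 was just inside the lower limit of size at 0.20 and 0.35, and TESK2 just outside at 0.20 and 0.21, its smaller change being 0.199991. SLAMF7 was just inside the upper limit and HMGCS1 just outside. GBE1, a glycogen branching enzyme, lay just outside the limit of similarity at -0.56 and -0.28, opposite ISG20. RPL23AP32 was just inside the threshold (adjusted p = 0.049) and NCOA2, a nuclear receptor coactivator, just outside (0.21 and 0.22, adjusted p = 0.051).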

How the data were processed

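RNA of 12 samples was hybridised to Affymetrix human genome arrays. Normalization was by RMA, done by the authors, and the deposited table holds log2 values of 54613 probe sets, from -7.75 to 8.64, centred for each probe set (99.99% have 3 to 9 of their 12 values below 0). The RMA version is not given in the sources used here. Levels, a filter on dim probe sets and a check of control probe sets (0 in the table) were therefore not possible, and the number of arrays limits the precision.

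Of the probe sets, 41091 name 1 gene in the platform annotation (41037 with a gene number in RefSeq), 1801 several and 11721 none. Probe sets naming 1 gene were averaged into 19775 genes, 10523 of which have more than 1. In limma 3.58.1 (R 4.3.3; lmFit, contrasts.fit and eBayes) a mean for each of the 4 groups was fitted, and the resistant minus parental difference of each line, the mean of both and their difference were tested two-sided, with Benjamini-Hochberg adjustment over 19775 genes. Code was tested on simulated data. Python 3.11.15 with pandas 2.3.3, numpy 2.4.6 and matplotlib 3.10.9 served for tables and figures.

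The limits of the set and the 45 lists (1380 different genes analysed) were chosen with earlier results of these data known. The rule for naming took the 15 rises and 15 falls with the smallest p and no overlap of arrays, up to 5 members of the set from each list, genes at the limits, the 3 genes with the smallest p of the difference, KLF4, SQSTM1 and PSMB5. The histone family, the values of TXNDC11, SPCS2, SRPRA, STT3B, SEC24D and COPG1, and genes named for position were chosen after their values were seen. Alternatives were an additive model, no cell line term, a block of replicate numbers, weights for arrays, a robust prior, 2 other scalings, single or most variable probe sets, stricter limits, omission of each array and, chosen after seeing the data, the joint omission of 3 arrays. Same-numbered arrays deviated together irregularly (r from -0.35 to 0.56), so the numbers were not taken to pair the samples. The authors' own comparisons were not used.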

Additional observations from a re-analysis of the deposited data

Results flagged for a closer look

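Of the genes that the text names, here or above, 5 changed differently in the 2 derivatives by the test of the difference in limma (KMS-34 difference minus KMS-11 difference). LY96 rose in both and more in KMS-34/Cfz (0.4091, adjusted p = 0.034). HMGCS1 fell in both and less in KMS-34/Cfz (0.5062, adjusted p = 0.048). INAVA fell mainly in KMS-34/Cfz (-3.1885, adjusted p = 3.3e-09). The same held for ADGRL1 (-1.6758, adjusted p = 3.2e-07), whose change in KMS-11/Cfz was 0.05. HLTF was lower in KMS-11/Cfz and higher in KMS-34/Cfz (2.3581, adjusted p = 3.2e-07). INAVA, ADGRL1 and HLTF had been named for the smallest p of this difference, and groups of 3 arrays are too small for a check of single outlying arrays.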

How the results depend on the processing

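The counts below are given as rises and falls in the mean of both lines, then shared moderate rises and falls, then genes that differ between the lines, against 789, 763, 117, 144 and 1274. An additive model, in which differences between the lines add to the error, gave 275 rises and 321 falls, all of them also called before, and within 1.5 times as many shared changes. Without a cell line term 4, 2, 3 and 2 genes passed, since the lines then add to the error. Array weights gave 2034 rises, 1894 falls and 4062 differences. Single probe sets, of which more were tested, gave 1312, 1331, 319, 388 and 2074. At an adjusted p under 0.01 there were 347 rises, 357 falls and 539 differences. Stricter limits left fewer shared genes, with 94 falls with a stricter limit of similarity, 33 rises and 57 falls where both changes were at least 0.3, and 42 and 66 where each line passed on its own. Leaving out each array in turn gave 505 to 1254, 491 to 869, 97 to 152, 119 to 172 and 783 to 1935. Counts moved by over 1.5 times without KMS-34/Cfz replicate 1 (1254 rises, 1935 differences), KMS-11/Cfz replicate 1 (505 rises, 503 falls, 804 differences), KMS-11/Cfz replicate 2 (829 differences), KMS-11/Cfz replicate 3 (501 falls, 783 differences), KMS-11 replicate 1 (812 differences) and KMS-11 replicate 2 (491 falls, 832 differences). No omission moved a shared count that far. With the replicate number as a block, the counts were 804, 790, 119, 153 and 1292, of which 113 and 144 shared genes were the same genes, all 78 named genes past the threshold kept it, and 6 of 12 arrays correlated best with their own number. Aligned array medians, cyclic loess scaling, a robust prior, the most variable probe set and the joint omission of 3 arrays stayed within 1.5 times each count, but with cyclic loess scaling 80 of 117 rises and 88 of 144 falls were the same genes. That scaling fits array differences against an average that, in centred values, is no level. It ended the calls of 12 named genes, among them NDRG1 (0.29, adjusted p = 0.13), ANKRD37 (-0.04, adjusted p = 0.93), INAVA (-0.57, adjusted p = 0.70) and HLTF (-0.31, adjusted p = 0.54), and MCC, GRB14, FDPS, CBR3 and CD38 with the values given beside them.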

Other observations

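Shared moderate changes were counted by chromosome. Chromosome 3 held 22 falls and 4 rises among 1118 genes tested, and chromosome 8 held 13 rises and 1 fall among 715, against 144 falls and 117 rises among 19775. On the other chromosomes the falls numbered 0 to 19 and the rises 0 to 10. The falls on chromosome 3 included SSR3, SEC61A1, RPN1, MANF, DNAJB11, BHLHE40, PFKFB4 and TFRC, and the rises on chromosome 8 included LY96, HEY1, CTSB, SDCBP, KLF10 and NDRG1, so some genes of the secretory and hypoxia lists share a chromosome. Whether DNA copy number differed there was not tested. Neighbouring genes of the set with the same direction were FDPS and RUSC1-AS1, ITGA6 and PDK1, and NKX3-2 and LINC01096.

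Further members of the set with known roles, chosen after their values were seen, included MYDGF (-0.27 and -0.40), an ER-resident factor of the unfolded protein response, and the ER-membrane transcription factor CREB3L4 (-0.54 and -0.31). The acetyl-CoA transporter SLC33A1 (-0.27 and -0.31) and the collagen-modifying protein CRTAP (-0.24 and -0.40) also act in the secretory pathway. STAT6, a mediator of interleukin signals, changed by 0.28 and 0.28, and the inflammatory caspase CASP4 by 0.27 and 0.28. LINC01215, a long non-coding RNA, had nearly equal rises of 0.74 and 0.76. Of 11721 probe sets that name no gene, 39 had a shared moderate rise and 38 a shared moderate fall when single probe sets were tested.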
